A study of Homo sapiens with 36 samples.

Results

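The knockout (KO) macrophages given vehicle form a culture time series of 9 RNA-seq libraries, 3 each at 6, 12 and 24 h, out of 36 libraries in the series. They were chosen by their titles, which give the genotype IRG1 KO, the treatment Vehicle and the time. The comparison described here sets 24 h against 6 h, with 12 h as the intermediate point, and it follows the drift of unstimulated KO cells with time in culture. The cells were THP-1, a human monocytic leukemia line, with disruption of IRG1, now named ACOD1, whose product synthesises itaconate. Before the vehicle hours all cells of the series, wild type (WT) included, were differentiated with 100 nM PMA for 72 h. The labels do not say whether PMA stayed in the medium afterwards, whether the KO line was 1 clone, or whether replicates came from separate cultures, so p-values cover only the spread among these samples, which may be technical. The other libraries were WT vehicle cells and cells of both genotypes given LPS with IFN-γ, at the same times. WT vehicle cells at 24 h (n = 3) and 6 h (n = 2, with 1 library not used) serve as a comparison.

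PMA is a phorbol ester that activates protein kinase C, which signals through the ERK kinases to AP-1 transcription factors and drives THP-1 cells to attach and take on macrophage features. Monocytes and their precursors make large amounts of S100A8 and S100A9, the subunits of calprotectin, and of granule and surface proteins that fade as the cells mature. Mature macrophages make more scavenger receptors, complement proteins and tissue-remodelling enzymes.

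All values below are the deposited log2 values, and a difference of 1 in them is a 2-fold difference. Depth is unknown. Behind a log2 change, ± marks its standard error, and behind a level it marks the SD. A gene is called where the limma adjusted p is below 0.05. Where a call is lost when 1 library is left out, that library is named and the log2 change obtained without it stands in brackets.

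The libraries were checked first. All 10 macrophage and monocyte markers lay between 6.24 and 12.09 in the 9 KO vehicle libraries. Of 27 listed markers of other cell types 18 were in the table, and 8 were below 3.32, which is log2(10), in all 9 libraries (among them CD2, CD3D, CDH1, CDH5, DCN, FCGR3B and KRT8). The others included the neutrophil genes S100A12 (up to 7.73), CSF3R (up to 6.99) and CXCR2 (up to 5.94). Without S100A12, the linear values of the other 17 markers summed to between 232 and 263 at 24 h, against 178 to 184 at 6 h, and its part in the results was not tested. ACOD1 read at most 0.33 in any of the 9 libraries, so it does not check the genotype label in unstimulated cells. Replicate 2 at 6 h stood apart: its median correlation across genes with the other 8 libraries was 0.924, against 0.948 to 0.962 for the others. Results that rest on it are given with and without it.

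The promoters of 6 genes that rose or fell show where 2 motif types lay in genes that moved with time. AP-1 sites were first described as the element through which phorbol esters act, and C/EBP factors, which bind TTGCNNAA, drive myeloid genes. AP-1 was searched as TGANTCA, where N is any base, so a match need not be that phorbol ester element. The match reads TGAATCA in S100A12 and KCNJ4 and TGACTCA in PTH1R. Capitals mark matches on either strand, and no match overlapped another. The sequences are RefSeq promoters on GRCh38.p14, from 250 bases before to 50 after the start of the gene. S100A8, S100A9 and S100A12 are shown because they had the 3 largest rises and their promoters lie within 33.8 kb of chromosome 1. HAL is shown as the other called rise with a C/EBP match, and KCNJ4 and PTH1R as called falls with an AP-1 match near the start.
S100A8 (chr1:153391139-153391438, minus strand): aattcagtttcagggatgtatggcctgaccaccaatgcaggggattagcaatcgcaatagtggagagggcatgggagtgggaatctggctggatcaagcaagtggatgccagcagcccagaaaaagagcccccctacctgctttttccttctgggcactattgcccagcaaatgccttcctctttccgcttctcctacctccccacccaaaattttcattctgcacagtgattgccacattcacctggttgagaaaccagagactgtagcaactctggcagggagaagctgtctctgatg
S100A9 (chr1:153357604-153357903, plus strand): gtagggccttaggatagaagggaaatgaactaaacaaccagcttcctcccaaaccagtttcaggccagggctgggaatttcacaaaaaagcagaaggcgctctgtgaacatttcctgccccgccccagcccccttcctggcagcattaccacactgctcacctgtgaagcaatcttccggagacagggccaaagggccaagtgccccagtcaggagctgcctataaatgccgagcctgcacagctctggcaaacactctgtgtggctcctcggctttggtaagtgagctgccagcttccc
S100A12 (chr1:153375572-153375871, minus strand): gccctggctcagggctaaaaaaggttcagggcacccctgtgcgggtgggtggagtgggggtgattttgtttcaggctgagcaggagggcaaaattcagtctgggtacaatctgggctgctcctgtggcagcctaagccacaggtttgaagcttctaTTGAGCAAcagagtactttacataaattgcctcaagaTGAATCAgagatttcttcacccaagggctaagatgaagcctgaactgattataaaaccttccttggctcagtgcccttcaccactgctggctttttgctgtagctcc
HAL (chr12:95996295-95996594, minus strand): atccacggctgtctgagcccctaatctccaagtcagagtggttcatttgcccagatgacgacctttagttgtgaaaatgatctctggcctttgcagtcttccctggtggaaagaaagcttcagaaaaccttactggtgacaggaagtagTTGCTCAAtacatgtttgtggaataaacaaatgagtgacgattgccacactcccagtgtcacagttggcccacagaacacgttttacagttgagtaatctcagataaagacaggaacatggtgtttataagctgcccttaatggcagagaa
KCNJ4 (chr22:38443979-38444278, minus strand): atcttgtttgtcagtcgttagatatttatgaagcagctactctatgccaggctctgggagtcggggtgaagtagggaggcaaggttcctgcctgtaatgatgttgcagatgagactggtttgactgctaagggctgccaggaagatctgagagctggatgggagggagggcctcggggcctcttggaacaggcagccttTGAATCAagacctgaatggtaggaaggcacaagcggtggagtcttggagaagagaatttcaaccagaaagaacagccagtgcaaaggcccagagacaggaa
PTH1R (chr3:46877471-46877770, plus strand): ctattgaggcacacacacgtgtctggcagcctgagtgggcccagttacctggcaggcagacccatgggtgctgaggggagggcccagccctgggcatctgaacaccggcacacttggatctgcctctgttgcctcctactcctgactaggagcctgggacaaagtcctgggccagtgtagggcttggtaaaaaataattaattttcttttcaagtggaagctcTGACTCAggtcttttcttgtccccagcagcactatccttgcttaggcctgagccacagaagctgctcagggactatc

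Counted from the gene start, S100A12 had a C/EBP match at position -94 and an AP-1 match at position -57. S100A8 and S100A9 had neither motif in these windows. An AP-1 match was in 9 of 90 promoters of genes called lower (10%) and in 2 of 33 of genes called higher (6.06%), against 720 of 13720 promoters of all genes tested (5.25%). A C/EBP match was in 5 of 90 (5.56%) and 2 of 33 (6.06%), against 1046 of 13720 (7.62%). PTH1R, the receptor of parathyroid hormone, was chosen after its values were seen. It changed by -2.01 ± 0.41 (limma adjusted p = 0.0119) and was not called without 24 h replicate 2 (-1.78) or 3 (-2.04) or 6 h replicate 3 (-1.77). Promoters were at hand for 123 of the 169 called genes. A match describes the letters in the window and not a bound site.

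The first question was which genes differed between 24 h and 6 h of vehicle in KO cells. Of 21205 genes tested, 169 were called (0.797%), with 48 higher at 24 h (0.226%) and 121 lower (0.571%). S100A8, S100A12, S100A9 and LYZ, all abundant in monocytes, had the largest rises. AQP1, a water channel, DMP1, a mineralised matrix protein, and STATH, a salivary protein, had the largest falls. In bulk RNA, fewer cells of a kind and less RNA per cell cannot be told apart. The called changes ran from 0.76 to 5.43 on the log2 scale in size, and 163 of the 169 exceeded 2-fold as estimated. When tested against a minimum log2 change of 1, limma called 5 genes, all lower. In all 169 the 3 values at 24 h did not overlap the 3 values at 6 h, against 18.3% of all genes tested (3870). The 169 were chosen by this same comparison, so the lack of overlap is not separate support for them. The median log2 change over all genes was 0.01. At an unadjusted p below 0.05 there were 1895 of the 21205 genes, which is the background for such counts in the gene lists below.

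The replicate numbers behaved as pairs, and with the number as a block limma called 398 genes (1.88%), 124 higher (0.585%) and 274 lower (1.29%), all 169 among them. The count fell to 71 without 6 h replicate 2, 59 without 24 h replicate 1 and 66 without 24 h replicate 3, and to 92 without 6 h replicate 3 and 108 without 24 h replicate 2. Of the 169 genes, 37 kept their call whichever of the 6 libraries was left out, 7 higher and 30 lower. The 7 were S100A8, LYZ, KCND2, CD38, HAL, ADAM28 and the pseudogene PIP5K1P1. A fit of only the 6 libraries compared called 14 genes, 10 of them among the 169.

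**Figure D1:**
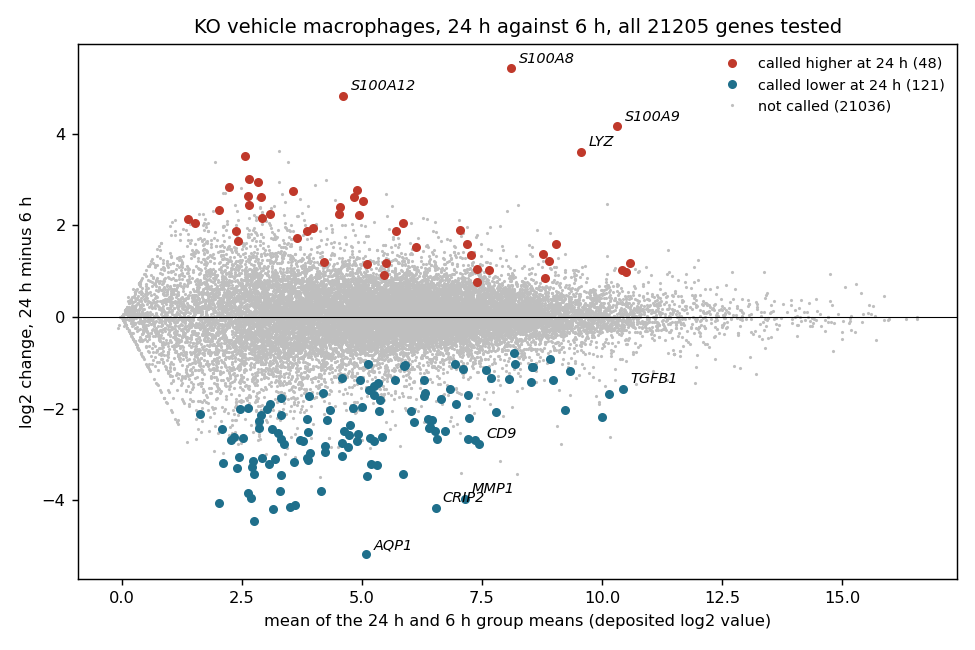
Log2 change (24 h minus 6 h, vertical axis) against the mean of both group means (horizontal axis, deposited log2 values) in KO vehicle macrophages, 1 point per gene. Red points are the 48 genes called higher at 24 h, blue points the 121 called lower, and S100A8 at 5.43 and AQP1 at -5.19 mark the ends of the range.

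S100A8, a calcium-binding subunit of calprotectin that monocytes and neutrophils release in inflammation, had the largest rise. It read 4.30, 5.44 and 6.46 at 6 h, then 8.17, 8.01 and 8.29 at 12 h and then 11.49, 10.52 and 10.49 at 24 h in replicates 1, 2 and 3, the order used throughout. The lowest 24 h library thus lay above all 12 h and 6 h libraries. Its mean was 10.83 ± 0.57 at 24 h and 5.40 ± 1.08 at 6 h (SD, n = 3 each), a 43.2-fold difference (log2 change 5.43 ± 0.91, limma adjusted p = 0.00185). S100A9, the partner subunit, read 8.17, 7.83 and 8.71 at 6 h, then 10.38, 10.54 and 9.88 at 12 h and then 13.11, 12.12 and 11.98 at 24 h, with no overlap between the times. It was 18.0-fold higher at 24 h (4.17 ± 0.80, limma adjusted p = 0.0073), and its call was lost without 24 h replicate 1 (3.81) or 6 h replicate 2 (3.96). S100A12, a related ligand of the receptor RAGE, read 0.50, 3.66 and 2.44 at 6 h, then 4.47, 4.14 and 5.05 at 12 h and then 7.73, 6.57 and 6.81 at 24 h. Here too the times did not overlap, and 6 h varied most. The log2 change was 4.84 ± 1.04 (limma adjusted p = 0.0194), not called without 24 h replicate 1 (4.49) or 3 (4.95) or 6 h replicate 1 (3.99) or 3 (4.96). It was also the 1 called of 16 markers of other cell types tested, since neutrophils carry it, and of the other neutrophil genes CXCR2 changed by 1.30 ± 0.36 (limma adjusted p = 0.0906) and CSF3R by 0.90 ± 0.45 (limma adjusted p = 0.58), neither called. FCGR3B, which marks mature neutrophils, was below 3.32 in all 9 libraries.

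LYZ, lysozyme, which cuts bacterial cell walls, read 7.91, 7.71 and 7.67 at 6 h, then 8.85, 8.61 and 8.97 at 12 h and then 12.09, 11.22 and 10.80 at 24 h. The rise after 12 h was the larger step, with means of 7.76, 8.81 and 11.37. LYZ was 12.2-fold higher at 24 h than at 6 h (3.61 ± 0.53, limma adjusted p = 4.93e-04). CD38, an NAD-consuming enzyme of the cell surface, read 4.86, 2.67 and 3.75 at 6 h, then 5.38, 4.20 and 5.30 at 12 h and then 7.02, 5.79 and 6.05 at 24 h. Replicate 1 was the highest and replicate 2 the lowest at each of the 3 times. CD38 was 5.76-fold higher at 24 h (2.53 ± 0.41, limma adjusted p = 0.00131). HAL, which breaks down histidine, read 3.82, 2.88 and 3.34 at 6 h, then 4.41, 4.87 and 4.29 at 12 h and then 5.78, 6.42 and 5.07 at 24 h. It was 5.31-fold higher at 24 h, with no overlap between times (2.41 ± 0.41, limma adjusted p = 0.00229). KCND2, a voltage-gated potassium channel, changed by 2.75 ± 0.41 (limma adjusted p = 5.40e-04).

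2 neighbouring inhibitory lectin receptors rose. CLEC12A, carried by monocytes and granulocytes, read 3.47, 4.48 and 2.63 at 6 h, then 4.65, 5.10 and 4.56 at 12 h and then 6.24, 6.28 and 6.36 at 24 h, so the 24 h libraries were nearly alike and the 6 h libraries were not. It was 6.80-fold higher at 24 h (2.77 ± 0.59, limma adjusted p = 0.0174). Its call was lost without 24 h replicate 1 (2.79), 2 (2.77) or 3 (2.73) or 6 h replicate 1 (2.74) or 3 (2.32). CLEC12B read 1.88, 1.19 and 1.71 at 6 h, then 1.89, 1.77 and 2.65 at 12 h and then 4.38, 3.71 and 4.58 at 24 h, and most of its rise lay after 12 h (2.63 ± 0.57, limma adjusted p = 0.0212). It was not called without 24 h replicate 1 (2.55) or 3 (2.45) or 6 h replicate 2 (2.43) or 3 (2.68). NAIP, an inflammasome sensor of bacterial proteins, was 4.78-fold higher (2.26 ± 0.45, limma adjusted p = 0.0103), not called without 24 h replicate 2 (1.96) or 6 h replicate 2 (2.17). Its pseudogene NAIPP4 was called too (1.88), though not without any 1 library (1.76 without 6 h replicate 3 to 1.96 without 24 h replicate 3), and reads of such near-identical copies may have been split between them.

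The other leading rises depended more on single libraries. PCDH17, a cell adhesion protocadherin, read 5.21, 1.74 and 5.57 at 24 h, against 1.53, 0.31 and 1.60 at 6 h. Replicate 2 was far below the others at 24 h and barely above the highest 6 h library. PCDH17 changed by 3.02 ± 0.67 (limma adjusted p = 0.0236) and was not called without 24 h replicate 1 (2.51) or 3 (2.33) or 6 h replicate 2 (2.61) or 3 (3.25). VIT, a matrix protein, changed by 2.95 ± 0.61 (limma adjusted p = 0.0148), not called without 24 h replicate 1 (2.77) or 2 (2.70) or 6 h replicate 2 (2.76) or 3 (2.51). SULT1B1, a sulfotransferase, changed by 2.64 ± 0.61 (limma adjusted p = 0.0302) and was called only with 6 h replicate 1 left out or with all libraries: without 24 h replicates 1, 2 and 3 it read 2.62, 2.66 and 2.65, and without 6 h replicates 2 and 3 it read 2.59 and 2.50. IL31RA, a cytokine receptor, changed by 2.25 ± 0.53 (limma adjusted p = 0.0325), and its call was lost without any 1 of the 6 libraries (2.05 without 24 h replicate 2 to 2.47 without 24 h replicate 3).

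**Figure D2:**
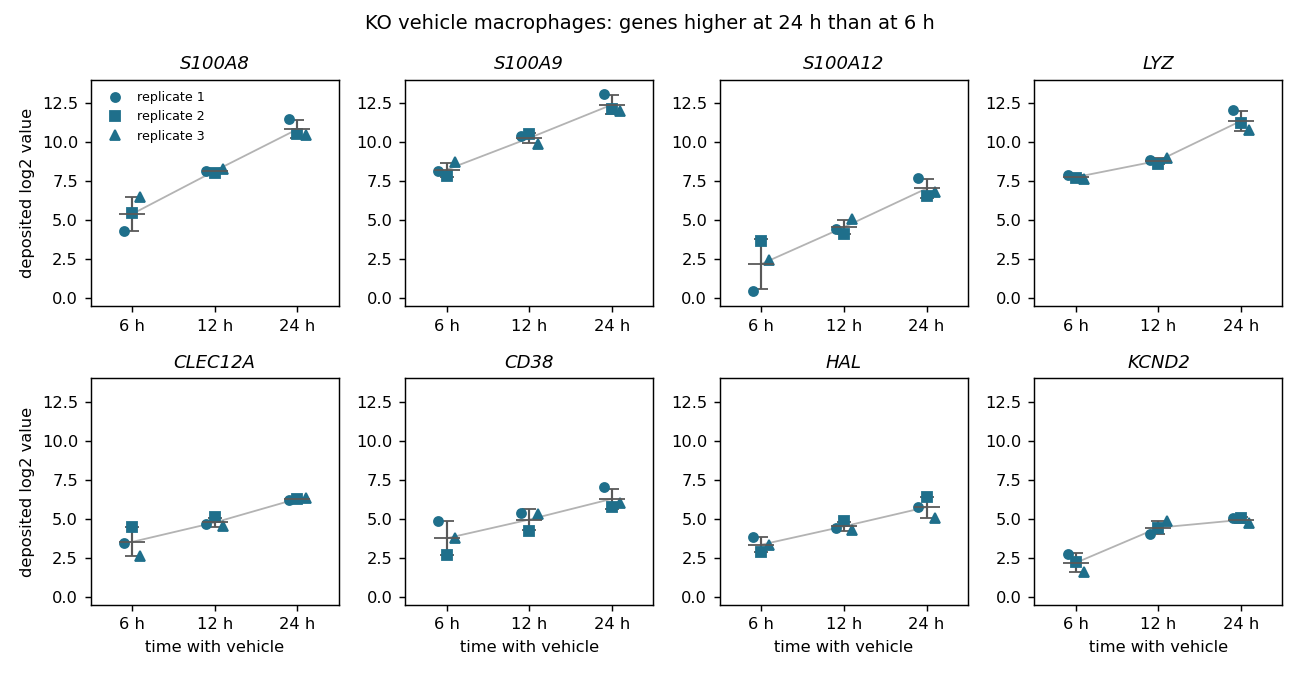
Deposited log2 values of 8 genes called higher at 24 h, by time with vehicle, in KO macrophages. Symbols are the 3 replicates, and bars the mean and SD at each time (n = 3). S100A8 means were 5.40, 8.16 and 10.83 at 6, 12 and 24 h.

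AQP1, a water channel, had the largest fall and the smallest adjusted p. It read 6.47, 7.74 and 8.85 at 6 h, then 4.33, 4.45 and 4.33 at 12 h and then 1.91, 3.11 and 2.49 at 24 h, so each time lay wholly below the one before. The log2 change was -5.19 ± 0.54 (limma adjusted p = 6.25e-06). The call held whichever library was left out, and was lost only in the fit of the libraries compared (limma adjusted p = 0.0672). CRIP2, a LIM-domain protein, read 7.43, 8.89 and 9.55 at 6 h, then 7.18, 5.41 and 7.76 at 12 h and then 4.56, 3.56 and 5.23 at 24 h. The 12 h libraries overlapped those at 6 h but not those at 24 h. CRIP2 was 18.0-fold lower at 24 h (-4.17 ± 0.77, limma adjusted p = 0.00534). BDKRB2, the bradykinin B2 receptor, read 6.55, 6.97 and 7.00 at 6 h, then 5.67, 4.80 and 5.35 at 12 h and then 3.43, 3.51 and 3.17 at 24 h. It was 11.1-fold lower at 24 h, with replicates closer together at 6 h and 24 h than at 12 h (-3.47 ± 0.66, limma adjusted p = 0.00658).

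MMP1, the interstitial collagenase and a classical gene induced by phorbol esters through AP-1, read 9.91, 10.24 and 7.23 at 6 h, then 7.46, 8.18 and 5.85 at 12 h and then 4.58, 6.55 and 4.35 at 24 h. Replicate 3 was the lowest and replicate 2 the highest at each time. MMP1 was 15.6-fold lower at 24 h (-3.97 ± 0.75, limma adjusted p = 0.00658), and its call was lost without 24 h replicate 1 (-3.67) or 3 (-3.56) or 6 h replicate 2 (-3.41). In the list of matrix proteases, inhibitors and matrix limma called 2 of 31 members lower, MMP1 among them, and 0 higher. At an unadjusted p below 0.05 there were 7 lower and 0 higher, and 8 of the 31 changes were above 0. The list median was -0.32, or -0.40 without 6 h replicate 2. MMP12, macrophage elastase, was not called (-2.86 ± 0.95, limma adjusted p = 0.213), though it was without 6 h replicate 3 (-4.10).

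A further 3 falls were in genes best known from nerve cells. KCNIP1, a calcium-binding subunit of the channel family that KCND2 belongs to, read 5.04, 4.99 and 3.96 at 6 h, then 4.02, 2.89 and 2.29 at 12 h and then 0.82, 0.56 and 0.75 at 24 h (-3.95 ± 0.51, limma adjusted p = 1.45e-04). HPCAL4, a neuronal calcium sensor, changed by -3.46 ± 0.57 (limma adjusted p = 0.00136). Both kept their calls without each library. KCNJ4, an inward rectifier potassium channel, was listed near 0 in all 3 libraries at 24 h, against 4.33, 2.96 and 4.92 at 6 h (-4.07 ± 0.83, limma adjusted p = 0.0119). It was not called without 24 h replicate 1 (-4.07) or 3 (-4.07) or 6 h replicate 3 (-3.64).

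The remaining leading falls were below 3.32 in all 24 h libraries. TRAJ9, a joining segment of the T cell receptor alpha locus, changed by -3.84 ± 0.61 (limma adjusted p = 0.00124) and kept its call without each library. DMP1 read 0.00, 1.62 and 0.00 at 24 h, against 4.33, 4.97 and 5.68 at 6 h. It was just inside the threshold (-4.45 ± 1.10, limma adjusted p = 0.0482) and lost its call without any 1 library (-4.99 without 24 h replicate 2 to -4.11 without 6 h replicate 3). STUM also lost its call without any 1 library (-3.80 ± 0.90, limma adjusted p = 0.037; -4.20 without 6 h replicate 3 to -3.09 without 6 h replicate 2). STATH, or statherin, read 0.35, 0.49 and 2.33 at 24 h, against 2.90, 5.83 and 7.06 at 6 h (-4.21 ± 1.00, limma adjusted p = 0.0365), and kept its call only without 6 h replicate 1 (lost values from -4.84 without 24 h replicate 3 to -3.31 without 6 h replicate 3). LHX1, a developmental homeobox factor, changed by -4.16 ± 0.99 (limma adjusted p = 0.0385) and kept its call only without 6 h replicate 3 (lost values from -4.70 without 24 h replicate 1 to -3.28 without 6 h replicate 1). GLDN, a protein of the nodes of nerve fibres, changed by -4.12 ± 0.90 (limma adjusted p = 0.0212), not called without 24 h replicate 1 (-3.81) or 3 (-3.96) or 6 h replicate 1 (-3.77) or 2 (-4.02). CCDC182 changed by -3.44 ± 0.80 (limma adjusted p = 0.0325) and kept its call only without 6 h replicate 3 (lost values from -3.91 without 24 h replicate 1 to -2.79 without 6 h replicate 2).

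**Figure D3:**
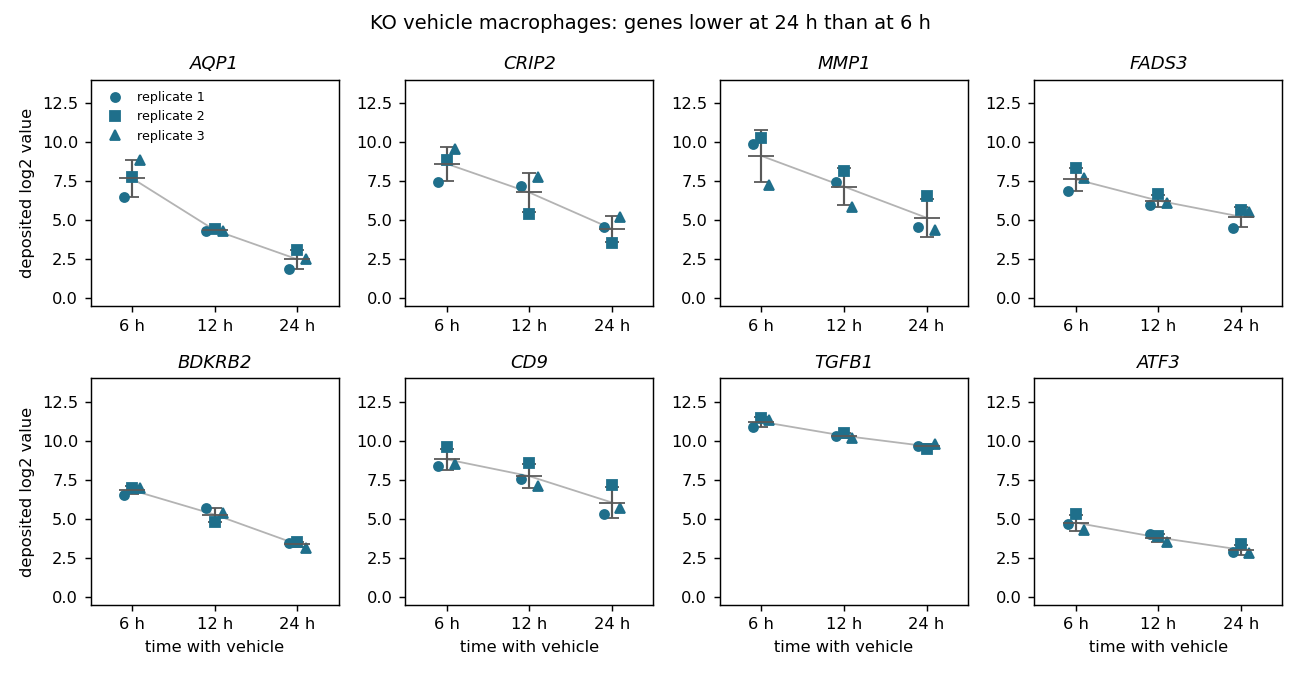
Deposited log2 values of 8 genes called lower at 24 h, by time with vehicle, in KO macrophages. Symbols are the 3 replicates, and bars the mean and SD at each time (n = 3). AQP1 means were 7.69, 4.37 and 2.50 at 6, 12 and 24 h.

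Gene lists place these changes beside other genes of the same kind. Of 35 lists, 13 held at least 1 called gene and 22 held none, and the medians of those 22 ran from -0.41 to 0.43. Each list median described is also given without 6 h replicate 2. The share of all genes called, 0.797%, amounts to under 1 gene in each list, so a single call in a list is near the background.

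Myeloid precursor markers, genes of granulocyte and monocyte progenitors, had 3 of 22 members called, all higher, with a list median of 0.37, against 0.01 over all genes. They were CD38, described above, GFI1 and MPO. GFI1, a repressor that guides granulocyte development, read 8.08, 7.96 and 7.88 at 24 h, against 7.29, 6.13 and 5.73 at 6 h, without overlap (1.59 ± 0.38, limma adjusted p = 0.0389). It kept its call only without 6 h replicate 1, with values from 1.26 without 6 h replicate 3 to 1.64 without 24 h replicate 3. MPO, myeloperoxidase of granulocyte granules, read 3.21, 3.99 and 2.40 at 24 h, against 1.46, 1.11 and 0.03 at 6 h (2.34 ± 0.57, limma adjusted p = 0.0469), and lost its call without any 1 library (1.92 without 6 h replicate 3 to 2.74 without 24 h replicate 3). With the replicate block 5 members were called, and the 2 added were MS4A3, a cell cycle adaptor of granulocyte precursors (2.68 ± 0.85, limma adjusted p = 0.18 without and 0.0127 with the block), and MYB, a progenitor factor (1.97 ± 0.56, limma adjusted p = 0.101 and 0.0412). Without 6 h replicate 2 only CD38 was called, with a list median of 0.46. CTSG, cathepsin G, was not called (1.05 ± 0.67).

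Sterol synthesis and uptake genes had a list median of 0.72, against 0.01 over all genes, and 23 of the 24 log2 changes were above 0. In 12 of the 24 the 24 h values lay wholly above the 6 h values, against 9.53% of all genes tested. At an unadjusted p below 0.05 there were 10 of the 24 members, all higher at 24 h, against 1895 of all 21205 genes in either direction. The enzymes MSMO1 (1.72 ± 0.52), HMGCS1 (1.42 ± 0.46) and CYP51A1 (1.35 ± 0.41) were not called, with limma adjusted p = 0.136, 0.202 and 0.144. MSMO1 read 5.40, 5.58 and 4.97 at 6 h, then 5.84, 7.17 and 6.37 at 12 h and then 6.53, 7.78 and 6.79 at 24 h, so it did not overlap between 24 h and 6 h. Without 6 h replicate 2 the list median was 0.86. In WT cells, with 2 libraries at 6 h, the list median was 0.10. For the difference between KO and WT changes limma called 0 members, so the list was not shown to differ between genotypes.

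The lists of lipid efflux and lipid modification each had 1 fall. ABCG1, which exports cholesterol and is a target of the LXR receptors, read 3.20, 3.78 and 2.66 at 24 h, against 5.40, 6.46 and 6.06 at 6 h (-2.76 ± 0.54, limma adjusted p = 0.00845). It was not called without 24 h replicate 3 (-2.48) or 6 h replicate 2 (-2.51), and was the 1 called of 16 LXR targets (median -0.40, or -0.32 without 6 h replicate 2). APOC4 of that list was called with the block alone (-2.69 ± 0.76, limma adjusted p = 0.0982 without and 0.0254 with it). FADS3, a desaturase of the fatty acid list (15 members, median 0.37, or 0.23 without 6 h replicate 2), read 4.50, 5.65 and 5.52 at 24 h, against 6.85, 8.34 and 7.68 at 6 h. It was 5.27-fold lower (-2.40 ± 0.34, limma adjusted p = 3.20e-04) and kept its call without each library. Of 24 PPAR targets limma called 0, with 1 higher and 2 lower at an unadjusted p below 0.05. The list median was 0.03, or 2.83e-04 without 6 h replicate 2, and 13 changes were above 0. The higher one was DGAT2, which makes triglycerides, with 0.76 ± 0.33 (limma adjusted p = 0.47). Of the lower ones LPL, lipoprotein lipase, had -1.91 ± 0.76 (limma adjusted p = 0.375) and the fatty acid binding protein FABP3 -2.28 ± 0.72 (limma adjusted p = 0.178, and 0.0272 with the block).

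Macrophage identity genes moved both ways, with LYZ called higher and CD9 called lower of 38 members and a median of 0.29. CD9, a tetraspanin of the cell surface, read 8.36, 9.59 and 8.50 at 6 h, then 7.54, 8.58 and 7.10 at 12 h and then 5.32, 7.16 and 5.67 at 24 h. Replicate 2 was the highest at each time. CD9 was 6.81-fold lower at 24 h (-2.77 ± 0.45, limma adjusted p = 0.00131), with its call kept without each library. The complement genes C1QC (2.22 ± 0.76, limma adjusted p = 0.246) and C1QA (1.52 ± 0.73, limma adjusted p = 0.545) and osteopontin, SPP1 (-1.47 ± 0.69, limma adjusted p = 0.535), had large changes that were not called. The lineage factor SPI1 differed by 0.17 ± 0.23 and the growth factor receptor CSF1R by 0.18 ± 0.50, neither called. Without 6 h replicate 2 the list also had 1 higher and 1 lower call, and its median was 0.59.

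Immediate early factors, which phorbol esters induce, had a median of -0.43 (-0.41 without 6 h replicate 2) and 1 called of 26 members. ATF3, a stress-induced partner of AP-1, read 4.70, 5.31 and 4.27 at 6 h, then 4.02, 3.88 and 3.52 at 12 h and then 2.89, 3.39 and 2.80 at 24 h, each time below the one before (-1.73 ± 0.31, limma adjusted p = 0.00365). Its call was kept without each library. With the replicate block JUNB (-0.92), JUND (-0.87), IER3 (-1.44) and MYC (1.14) were called too (limma adjusted p = 0.00968, 0.0249, 0.036 and 0.0463 with it, and 0.0602, 0.0514, 0.143 and 0.477 without). In 9 of the 26 the 24 h values lay wholly below those at 6 h, against 8.72% of all genes. Of 21 ERK output and feedback genes limma called 0 (6 at an unadjusted p below 0.05, all lower), 1 (IER3) with the block, and their median was 0.01, or -0.30 without 6 h replicate 2. In 9 of the 21 the 24 h values lay wholly below those at 6 h, and in 3 wholly above, against 8.72% and 9.53% of all genes. FOSL1, EGR1 and IER3 are in both lists, so IER3 is the same call in each. DUSP1, a phosphatase that switches off MAP kinases, stands outside these lists and was chosen after its values were seen. It read 6.47, 7.36 and 7.33 at 6 h, then 5.77, 5.91 and 6.19 at 12 h and then 4.91, 5.18 and 4.91 at 24 h (-2.06 ± 0.33, limma adjusted p = 0.00133), and kept its call without each library.

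Among 30 cytokines limma called 2 lower and 0 higher. At an unadjusted p below 0.05 there were 4 lower and 0 higher, and 18 of the 30 changes were above 0. The list median was 0.05, or 0.17 without 6 h replicate 2. TGFB1, which restrains inflammation and promotes matrix deposition, read 10.87, 11.49 and 11.32 at 6 h, then 10.31, 10.50 and 10.16 at 12 h and then 9.67, 9.48 and 9.82 at 24 h. The times did not overlap. TGFB1 was 2.97-fold lower at 24 h (-1.57 ± 0.30, limma adjusted p = 0.00658), a call lost without 6 h replicate 2 (-1.44). IL24, a cytokine of the IL-10 family, read 2.43, 3.09 and 1.59 at 24 h, against 5.68, 5.53 and 3.98 at 6 h (-2.70 ± 0.63, limma adjusted p = 0.0338). It was not called without 24 h replicate 1 (-2.73) or 3 (-2.31) or 6 h replicate 1 (-2.39) or 2 (-2.46). TNFSF14, a TNF family ligand, was called with the block alone (-1.31 ± 0.33, limma adjusted p = 0.0523 without and 0.0213 with it). Of 27 chemokines, 40 interferon-stimulated genes and 26 NF-kB targets limma called 0, with 6, 2 and 5 at an unadjusted p below 0.05 and medians of -0.01, 0.14 and -0.05. Without 6 h replicate 2 these medians were 0.28, 0.36 and 0.15. With the block the NF-kB targets BCL3 (-1.35 ± 0.41, limma adjusted p = 0.0369) and NFKBIA (-0.88 ± 0.31, limma adjusted p = 0.0373) were called.

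ITGB5, an integrin subunit, was the 1 called of 29 adhesion genes (median -0.07, or -0.04 without 6 h replicate 2). It read 8.75, 8.72 and 8.77 at 24 h, against 10.13, 9.94 and 9.72 at 6 h, a 2.27-fold difference with very tight replicates at 24 h (-1.18 ± 0.28, limma adjusted p = 0.0385). Its call was lost without any 1 library (-1.28 without 6 h replicate 3 to -1.08 without 6 h replicate 1). The integrins ITGB3 (-2.64 ± 0.73) and ITGA3 (-1.85 ± 0.58) were called with the block alone (limma adjusted p = 0.0118 and 0.008 with it, 0.0948 and 0.164 without). PLK3, a stress kinase, was the 1 called of 24 p53 targets (-1.97 ± 0.46, limma adjusted p = 0.0306; list median 0.21, or -0.06 without 6 h replicate 2). PLK3 kept its call only without 24 h replicate 2, with other values from -2.12 without 6 h replicate 1 to -1.70 without 6 h replicate 2. GDF15, a stress-induced cytokine of the same list, was called with the block alone (-2.38 ± 0.73, limma adjusted p = 0.152 without and 0.0369 with it).

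IDH1, the cytosolic isocitrate dehydrogenase and so not an enzyme of the mitochondrial cycle itself, was the 1 called of 27 genes in the TCA cycle list. It read 7.72, 8.15 and 7.86 at 24 h, against 6.96, 6.79 and 6.86 at 6 h, a 2.06-fold difference (1.04 ± 0.22, limma adjusted p = 0.0153). It was not called without 24 h replicate 2 (0.92) or 3 (1.06) or 6 h replicate 2 (1.00) or 3 (1.04). The list median was 0.23, or 0.24 without 6 h replicate 2. PC, pyruvate carboxylase, was called lower with the block alone (-1.73 ± 0.61, limma adjusted p = 0.265 without and 0.0156 with it). Oxidative phosphorylation (31 genes), lysosome (35) and glycolysis and hypoxia (35) had 0 members called by limma, with 0, 2 and 4 at an unadjusted p below 0.05 and medians of 0.04, 0.07 and 0.07. Without 6 h replicate 2 these medians were 0.19, 0.01 and 0.06. ADM, the vasodilator peptide adrenomedullin of the hypoxia list, was called with the block alone (-1.69 ± 0.45, limma adjusted p = 0.076 without and 0.0476 with it).

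Of 44 mitotic genes limma called 0 (also 0 at an unadjusted p below 0.05), the median was 0.43 and 43 changes were above 0, but without 6 h replicate 2 the median was -0.16. MKI67, a proliferation marker, shows this: it read 7.23, 7.34 and 5.83 at 24 h, against 7.35, 2.91 and 5.67 at 6 h, so replicate 2 at 6 h was low and the other 5 libraries overlapped (1.49 ± 1.00, limma adjusted p = 0.718). The 42 replication genes had a median of 0.08, or 0.12 without that library, and limma called 0 (0 at an unadjusted p below 0.05).

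**Figure D4:**
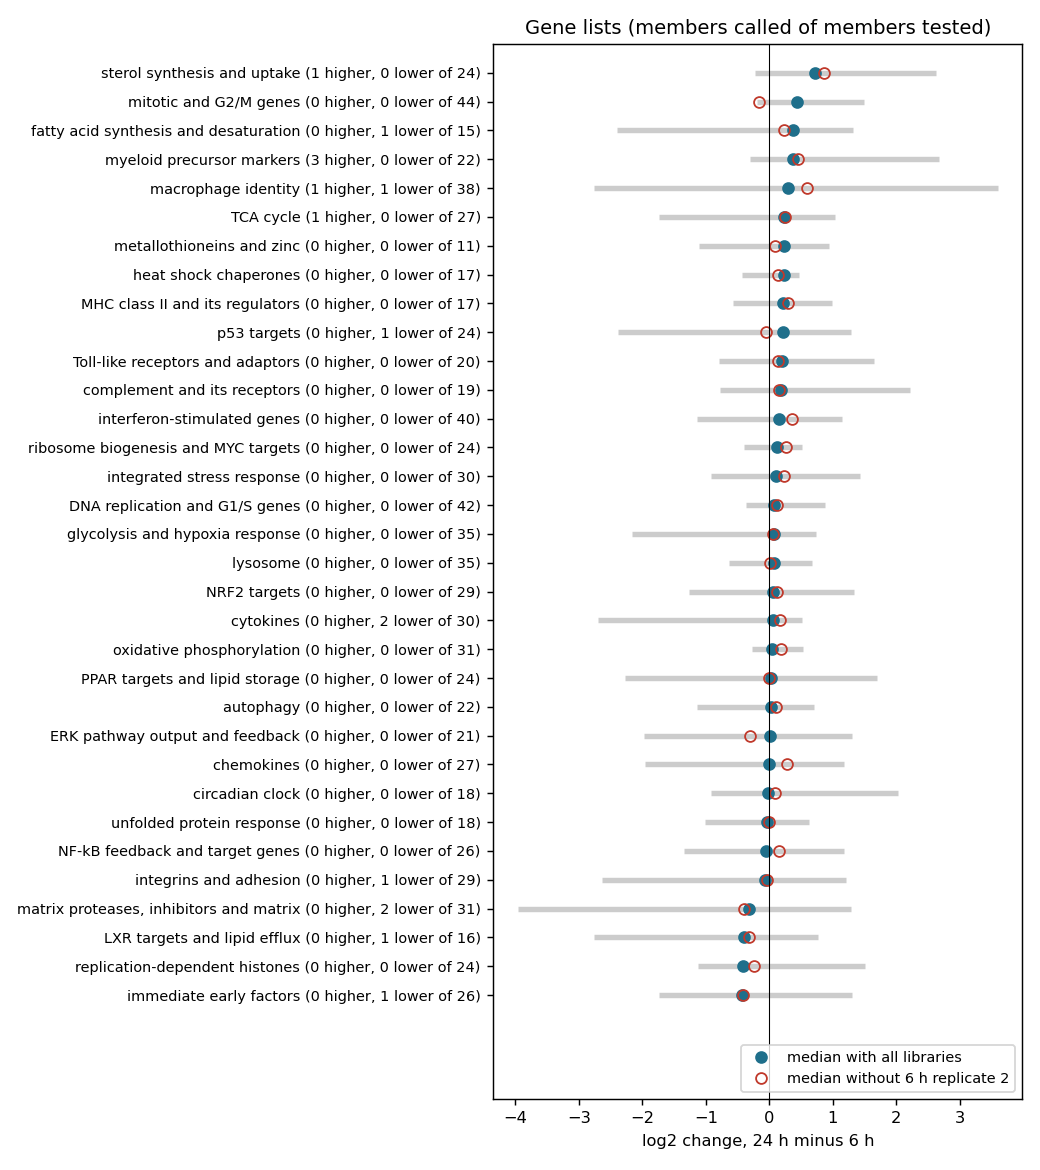
Log2 change, 24 h minus 6 h, in KO vehicle macrophages for 33 gene lists, with the members called of those tested beside each name. Grey bars run from the lowest to the highest member, filled points are medians with all libraries and open points medians without 6 h replicate 2. Sterol synthesis had the highest median, 0.72, and mitotic genes moved from 0.43 to -0.16 without that library.

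The 12 h libraries place these changes in time. At 12 h against 6 h 1 gene was called (0.00472%), AQP1, by -3.32 ± 0.54 (limma adjusted p = 0.0291), and 661 genes had an unadjusted p below 0.05. That call was kept without 6 h replicate 1 (-3.93) and lost without 6 h replicate 2 (-3.29) or 3 (-2.74) or 12 h replicate 1 (-3.30), 2 (-3.36) or 3 (-3.30). At 24 h against 12 h limma called 0 genes (0% of 21205), with 366 at an unadjusted p below 0.05 and a smallest adjusted p of 0.488. The 661 and the 366 are each a smaller share of the 21205 genes than the 0.05 that this threshold passes where no gene differs. Both comparisons share libraries with that of 24 h against 6 h. Among the 48 genes called higher at 24 h against 6 h, the median log2 change was 1.03 at 12 h against 6 h and 1.99 at 24 h against 6 h. Among the 121 called lower these medians were -1.23 and -2.43. The 12 h mean lay between the other means in all 169 called genes, against 51.7% of all genes. The called genes were chosen for a wide gap between 6 h and 24 h, in which an intermediate mean is more likely to fall.

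The same interval in WT vehicle cells asks whether the drift was particular to the knockout. In WT cells 1 gene was called (0.00472%), with only 2 libraries at 6 h and with 894 genes at an unadjusted p below 0.05, itself a share below 0.05. It was STAC2, an adaptor of calcium channels, which fell by 3.53 on the log2 scale (SE 0.57, limma adjusted p = 0.0225). The call was lost without each of the 5 WT libraries, from -3.57 without 24 h replicate 2 to -3.49 without 24 h replicate 3. STAC2 was also called in KO cells (-2.28 ± 0.51, limma adjusted p = 0.0228), but not without 24 h replicate 2 (-1.82) or 3 (-2.38) or 6 h replicate 2 (-2.05) or 3 (-2.24). For the difference between KO and WT changes limma called 0 genes (0% of 21205), with a smallest adjusted p of 0.9999. At an unadjusted p below 0.05 there were 355 genes, again a share below 0.05. No gene was thus shown to drift differently in the genotypes.

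The libraries of the 2 genotypes are separate, so WT cells give a second reading of the genes called in KO cells. Of the 169, 161 had the same sign in WT cells (95.3%), against 63.5% of all genes tested. The 48 called higher in KO cells had a median change of 1.99 in KO cells and 0.87 in WT cells, and the 121 called lower had -2.43 and -1.12. A smaller change in WT cells does not show a difference, since the genes were chosen by their change in KO cells. WT 24 h replicate 1 had no 6 h library of its number in the fit. The WT changes, and the differences from KO cells, are therefore not balanced over the replicate numbers. That replicate was the highest WT library at 24 h for LYZ and S100A8 but not for AQP1. LYZ read 14.31, 12.34 and 13.53 in WT cells at 24 h, against 10.85 and 10.84 at 6 h (2.55 ± 0.59, limma adjusted p = 0.163). S100A8 read 13.35, 11.41 and 13.11 in WT cells at 24 h, against 6.15 and 10.12 at 6 h, where the 2 libraries lay far apart (4.49 ± 1.02, limma adjusted p = 0.163). AQP1 read 0.94, 1.26 and 0.92 in WT cells at 24 h, against 3.14 and 5.40 at 6 h (-3.23 ± 0.60, limma adjusted p = 0.0832). The difference between the changes, KO minus WT, was 1.06 ± 0.79 for LYZ, 0.94 ± 1.36 for S100A8 and -1.96 ± 0.81 for AQP1, none called.

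Some genes called in KO cells changed less in WT cells. IDH1 changed by 1.04 in KO cells and 0.03 ± 0.24 in WT cells (difference 1.01 ± 0.33). IL24 changed by -2.70 in KO cells and 0.13 ± 0.71 in WT cells (difference -2.82 ± 0.95). PCDH17 changed by 3.02 and 0.18, and LHX1 by -4.16 and 0.43. None of these differences was called.

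**Figure D5:**
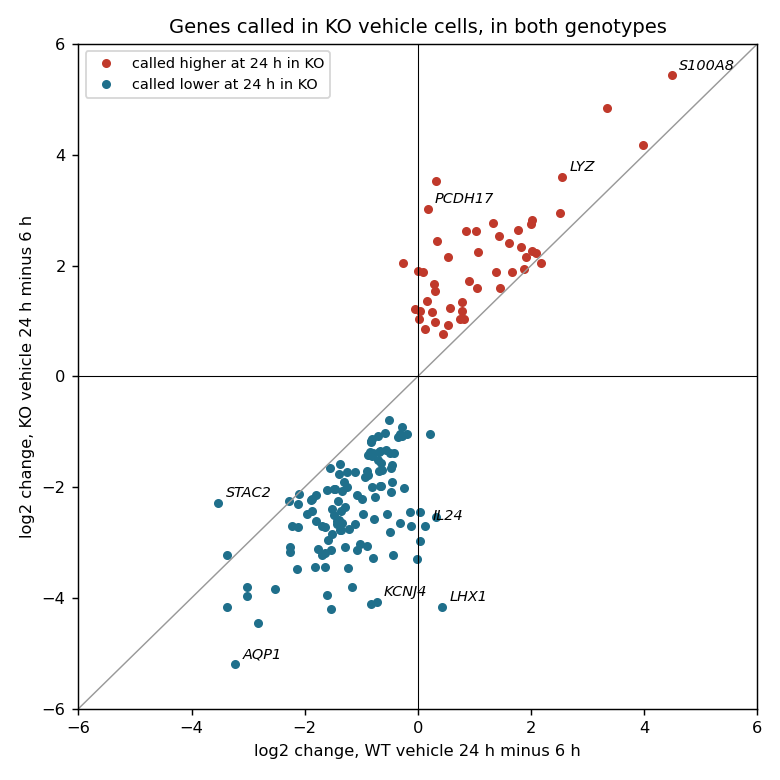
Log2 change, 24 h minus 6 h, in KO vehicle cells (vertical axis, n = 3 each) against WT vehicle cells (horizontal axis, n = 3 and 2) for the 169 genes called in KO cells. Red points were called higher and blue points lower in KO cells, the grey line marks equal changes, and 161 points have the same sign in both genotypes.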

How the data were processed

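RNA-seq was measured in THP-1 macrophages with RNeasy extraction and KAPA HyperPrep RiboErase libraries, per the labels' protocols. The authors deposited 1 table of log2 values for 21599 Entrez genes, with no missing value. Per the submitters' processing notes cutadapt 1.9.1, GSNAP and GRCh37.p5 were used, while the counting tool, offset and normalization are not given in the sources used here. Library medians ran from 5.4691 to 5.4753. Depth is unknown, so no counting error is given.

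Of 36 sample columns 1, WT vehicle 6 h replicate 1, was not used, because its header could not be checked against its unit. The planned fit of all 36 libraries therefore held 35. Genes at or above log2(10) in at least 3 libraries were kept (21205), and 394 were removed. A model of 12 group means was fitted with limma 3.58.1 in R 4.3.3 (eBayes with a mean-variance trend, 23 residual degrees of freedom), with two-sided p-values adjusted by Benjamini-Hochberg over all genes in each of 5 comparisons, and it was tested on simulated data. Python 3.11.15, pandas 2.3.3, numpy 2.4.6 and matplotlib 3.10.9 made tables and figures. Symbols came from RefSeq (GRCh38.p14), which matched 20609 of 21599 IDs. Linear folds are given where both means reach log2(10).

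Same-numbered libraries correlated after removal of group means by 0.416, 0.263 and 0.341 between KO 24 h and 6 h. The numbers were therefore taken as pairs in the fit with the replicate block. The main model had no replicate term, so p-values given without mention of the block ignore the pairing. The pairing comes from the data and not from the labels. Members and lists were chosen with earlier results of these data known. Named genes are ACOD1 and cell markers, the 15 largest called rises and falls with no overlap between the groups and a higher mean of at least 3.32, up to 6 members of each list with the largest change, and the largest changes of the other comparisons. Unnamed loci, antisense genes, pseudogenes and small RNAs were left out of the ranks, and a few genes that met the rule are not reported here. The fit was repeated with no filter, with a stricter filter (genes whose mean over all libraries reached the median gene's), after adding 5 on the linear scale, quantile normalizing or median centring, without the trend, with library weights, within the compared libraries alone, with replicate number as a block, against a minimum log2 change of 1, and omitting single libraries.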

Additional observations from a re-analysis of the deposited data

How the results depend on the processing

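Of 242 named genes 41 were called and 0 of these changed sign in any setting run. In all 20 named genes changed sign in at least 1 setting, none called with either sign, and the stricter filter tested 143 of the 242. The count of 169 genes for KO vehicle 24 h against 6 h was 67 with the stricter filter, 264 with a pseudocount of 5, 3493 with library weights, 14 with only the libraries compared and 5 with a minimum log2 change of 1, and 59 to 144 with 1 library left out. The library weights changed the split to 1800 higher and 1693 lower, and their estimation stopped before its tolerance was reached. The stricter filter, described with the processing, tests fewer genes, and leaving out libraries leaves fewer samples. For the other settings the cause was not tested. With the replicate block, which uses the numbers as pairs, the count was 398, and 17 named genes gained and 0 lost a call. At 12 h against 6 h the count of 1 was 0 with the stricter filter, 5 with a pseudocount of 5, 2 with no trend, 687 with library weights, 0 with only the libraries compared or a minimum change, 1 with the replicate block and 0 to 4 with 1 library left out. At 24 h against 12 h it was 38 with library weights. In WT cells the count of 1 was 0 with the stricter filter, 7 with a pseudocount of 5, 0 with only the libraries compared or a minimum change, 1 with the replicate block and 0 to 1 with 1 library left out. For the difference between genotypes it was 1 with a pseudocount of 5. Depth is unknown, so its part in calls of low genes cannot be given.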

Other observations

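The genes in this section were chosen after their values were seen. The S100 family, small calcium-binding proteins mostly encoded together on chromosome 1, did not move as one. Of 16 members tested 3 were called higher at 24 h than at 6 h in KO vehicle cells (S100A8, S100A9 and S100A12) and 1 lower, and the family median was -0.52. The fall was in S100A10, a partner of annexin A2 at the cell surface, which read 8.17, 9.69 and 8.87 at 24 h, against 10.18, 12.11 and 10.97 at 6 h (-2.18 ± 0.54, limma adjusted p = 0.0497). It was not called without 24 h replicate 1 (-1.80) or 3 (-2.16) or 6 h replicate 2 (-1.67) or 3 (-2.23). S100B, on chromosome 21, read 5.06, 5.05 and 5.08 at 24 h, against 2.49, 3.68 and 2.93 at 6 h, and was not called (2.03 ± 0.60, limma adjusted p = 0.124). S100A4 (-1.03 ± 0.40) and S100A11 (0.28 ± 0.33) were not called either.

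Other called genes outside the lists included regulators with tight replicates. KALRN, a guanine nucleotide exchange factor, read 1.25, 1.78 and 1.32 at 24 h, against 4.28, 4.95 and 4.77 at 6 h (-3.22 ± 0.42, limma adjusted p = 1.45e-04). LBH, a transcriptional cofactor, read 5.69, 6.09 and 6.24 at 24 h, against 8.92, 8.68 and 8.50 at 6 h (-2.70 ± 0.46, limma adjusted p = 0.00229). RGS16, which shortens G protein signals, read 5.76, 6.15 and 5.72 at 24 h, against 8.41, 8.65 and 8.59 at 6 h (-2.67 ± 0.46, limma adjusted p = 0.00229). ADAM28, a membrane protease, read 6.85, 7.08 and 6.78 at 24 h, against 5.28, 5.60 and 5.22 at 6 h (1.54 ± 0.21, limma adjusted p = 2.63e-04). These 4 genes kept their calls without each of the 6 libraries. IRF8, a lineage factor of monocytes, read 9.90, 10.13 and 9.51 at 24 h, against 8.34, 8.22 and 8.17 at 6 h (1.60 ± 0.35, limma adjusted p = 0.0227), and kept its call only without 24 h replicate 3 (lost values from 1.46 without 24 h replicate 2 to 1.65 without 6 h replicate 1).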
